A study of Homo sapiens with 9 samples.

Results

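The E2F family, the retinoblastoma protein gene RB1 and the E2F dimerization partner gene TFDP1 were examined in multicellular tumor spheroids (MTSs) of PC3 cells, a human prostate cancer line derived from a bone metastasis. Members were chosen by name: E2F1 to E2F8, RB1 and TFDP1 are 10 of the 27111 genes listed, and all 10 were among the 17108 genes that passed the filter on low counts. The 9 libraries fall into 3 groups of 3. PC3 cells were transduced with an empty lentiviral vector (Empty) or with the same vector carrying the murine cDNA of the long (NF-YAl) or the short (NF-YAs) splice isoform of NF-YA, the DNA-binding subunit of the CCAAT-binding factor NF-Y. All transduced cells, Empty included, went through puromycin selection, and each group is 1 stable line, so that a difference between groups cannot be told apart from a difference between lines. MTSs were grown for 7 days in medium with Matrigel, and 18 MTSs were pooled for each library. The libraries are lettered A to C for Empty and for NF-YAs, whereas NF-YAl has A, B and D. The question was how the level of each member differed between the lines that overexpressed an isoform and the Empty line, and between the isoforms. In pooled spheroids, fewer cells that express a gene and less RNA per cell cannot be told apart.

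E2F proteins bind DNA as dimers with a DP protein and control genes for entry into S phase. E2F1, E2F2 and E2F3 are known as activators that RB1 holds inactive until cyclin-dependent kinases phosphorylate it. E2F4 and E2F5 act mainly as repressors with the RB1 relatives p107 (RBL1) and p130 (RBL2), the latter as part of the DREAM complex of resting cells. E2F6 represses without pocket proteins, through Polycomb-type complexes, and E2F7 and E2F8 bind DNA without a DP partner and repress E2F targets later in S phase. RB1 loss and high E2F activity are known features of advanced prostate cancer.

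Library depth ranged from 18076979 to 27163976 expected counts, and the members had 103 to 2951 expected counts per library. Levels are given as CPM, the share of all counts taken by a gene multiplied up to a common total, scaled by the trimmed mean of M values. NFYA stood at 89.2, 96.7 and 89.4 CPM in Empty, at 287, 383 and 353 CPM in NF-YAl and at 264, 263 and 254 CPM in NF-YAs. The transgenes are murine, so the human NFYA count holds only the reads that align to the human transcript. NFYA was 3.72-fold higher in NF-YAl and 2.84-fold higher in NF-YAs than in Empty (edgeR quasi-likelihood test, adjusted p = 6.41e-07 and 2.21e-06). The other NF-Y subunit genes, NFYB and NFYC, did not pass in any comparison, with log2FC from 0.17 to 0.62. Among genes listed for the identity of PC3, the luminal keratins KRT8 and KRT18 were abundant, with means of 286 and 349 CPM in Empty, and the PSA gene KLK3 did not pass the filter on low counts. The epithelial adhesion gene EPCAM was at 0.982 CPM in Empty, 4.42 CPM in NF-YAl and 2.71 CPM in NF-YAs. EPCAM rose and KRT8 and KRT18 fell in both lines against Empty. NF-YAl libraries A and D stood apart from each other: the 22 G2/M genes summed to 915 CPM in A, 1548 in B and 1974 in D, against 1841 to 2034 CPM in Empty and 2313 to 2506 CPM in NF-YAs. This spread lies within a group, and it is given again beside the members that it touches.

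NF-Y binds the CCAAT box, and E2F dimers bind GC-rich octamers, so the promoters of the members were read for both. RefSeq promoter windows (GRCh38.p14, 250 bases before to 50 bases after a start site) were used for 7 members, in 8 windows, of which 1 of E2F3 lay downstream of the annotated gene start. CCAAT and the octamers TTTCCCGC, TTTCGCGC, TTTGCCGC and TTTGGCGC were searched on both strands. The 5 stretches that held a match are shown in gene orientation, since they show which members carry which motif. Capitals mark the CCAAT boxes, which read ATTGG where they lie on the other strand, and the E2F octamers.
E2F1 (chr20:33686386-33686579, minus strand): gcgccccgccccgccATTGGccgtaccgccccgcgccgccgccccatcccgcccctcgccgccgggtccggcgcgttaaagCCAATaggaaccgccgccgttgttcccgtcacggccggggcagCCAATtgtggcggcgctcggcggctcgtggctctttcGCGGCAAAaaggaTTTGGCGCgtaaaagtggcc
E2F2 (chr1:23531253-23531290, minus strand): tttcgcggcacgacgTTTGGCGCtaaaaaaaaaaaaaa
E2F3 (chr6:20401629-20401848, plus strand): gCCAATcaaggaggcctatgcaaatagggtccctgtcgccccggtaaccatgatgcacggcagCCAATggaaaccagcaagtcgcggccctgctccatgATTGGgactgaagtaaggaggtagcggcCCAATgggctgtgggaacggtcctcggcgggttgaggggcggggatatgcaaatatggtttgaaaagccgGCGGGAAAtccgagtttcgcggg
E2F7 (chr12:77065604-77065813, minus strand): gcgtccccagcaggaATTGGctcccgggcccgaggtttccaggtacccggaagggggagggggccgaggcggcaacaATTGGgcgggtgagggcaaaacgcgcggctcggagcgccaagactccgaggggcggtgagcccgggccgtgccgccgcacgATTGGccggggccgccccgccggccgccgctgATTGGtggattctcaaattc
TFDP1 (chr13:113584618-113584655, plus strand): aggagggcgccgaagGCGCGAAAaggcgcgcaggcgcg

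E2F1 held 3 CCAAT boxes, 179, 113 and 70 bases before the start site, and 2 E2F octamers, 33 and 20 bases before it. E2F3 held 4 CCAAT boxes and 1 octamer in its first window, the start of the long E2F3a transcript, and no match in a second window 1735 bases downstream. E2F7 held 4 CCAAT boxes, all in the ATTGG orientation, at 229, 167, 86 and 54 bases before the start, and no octamer of this set. E2F2 and TFDP1 held 1 octamer each and no CCAAT, and the windows of E2F4 and E2F6 held neither. Over 35116 windows of the same length, 34.6% held CCAAT, 10.8% held at least 2 CCAAT, 3.31% held an E2F octamer, 0.145% at least 2 octamers and 1.22% held both motifs. A match is a description of these letters, not a binding site. E2F5 and E2F8 were not read, and neither was RB1, whose window lay 172699 bases inside the gene.

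At adjusted p under 0.01 over all tested genes (edgeR), E2F5 rose and E2F4 and E2F7 fell in NF-YAl against Empty. Over all genes, 10% rose and 9.54% fell in that comparison. In NF-YAs against Empty, E2F6 rose and no member fell, where 12.1% of all genes rose and 10.5% fell, and 3 members were below an unadjusted p of 0.05 (E2F4, E2F6 and E2F7), as were 45.02% of all genes. In NF-YAl against NF-YAs, E2F7 fell and no member rose, where 4.7% of all genes rose and 6.25% fell. Below an unadjusted p of 0.05 were 42.2% of all genes in NF-YAl against Empty and 36.5% between the isoforms. No member passed both the adjusted p and a |log2FC| above 1 in any comparison by edgeR or DESeq2, nor at an unadjusted p under 0.05 with that fold. The share of all genes that did by edgeR was 8.27% in NF-YAl against Empty, 9.34% in NF-YAs against Empty and 4.61% between the isoforms. The libraries of the groups compared did not overlap for 3, 7 and 5 of the 10 members in these comparisons, and for 42.4%, 56.4% and 39.5% of all tested genes. Both comparisons with Empty share the Empty libraries.

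**Figure D1:**
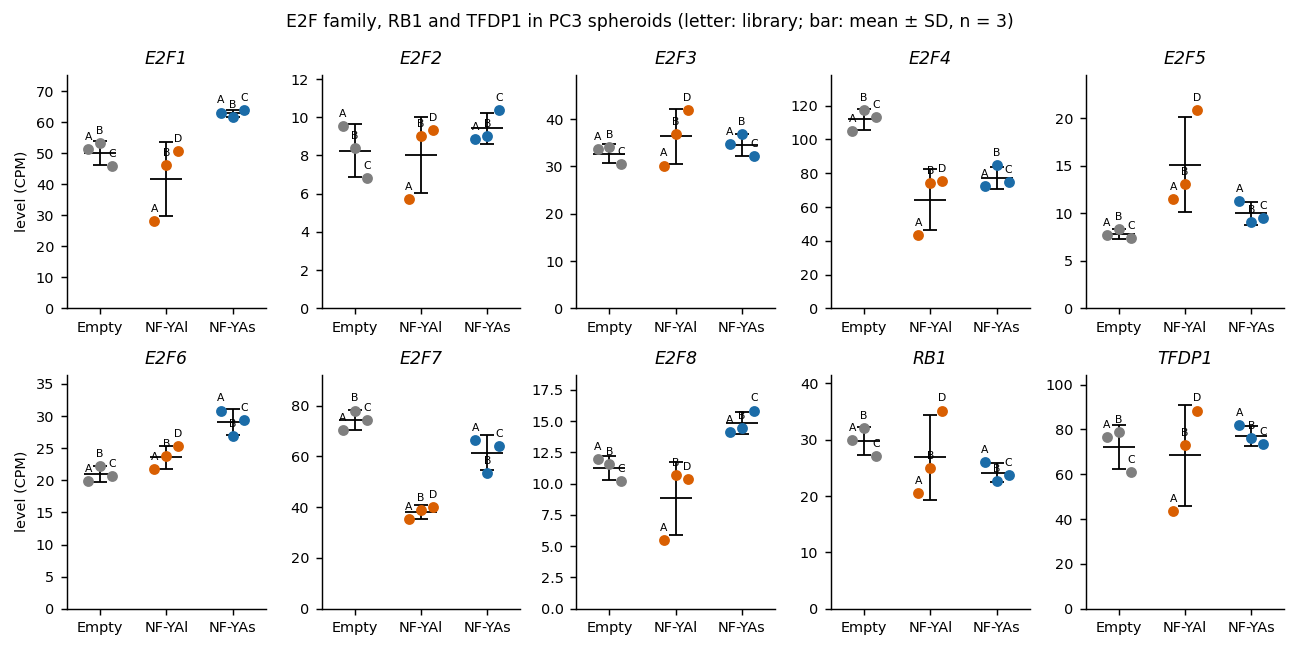
Level of each member in CPM in the 9 libraries (points, lettered by library), by group, with the mean ± SD (n = 3). E2F7 lies between 35.2 and 40.2 CPM in NF-YAl, below every other library, while NF-YAl library A is the lowest of all 9 for all members but E2F5 and E2F6.

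E2F7, an atypical E2F that represses E2F1 and other E2F targets (chr12:77415028-77459349, minus strand, GRCh37), fell in NF-YAl and was the member that passed between the isoforms with edgeR, while DESeq2 called E2F1 and E2F8 as well. It was measured at 70.2, 78.1 and 74.4 CPM in Empty A, B and C, at 35.2, 38.9 and 40.2 CPM in NF-YAl A, B and D, and at 66.6, 53.5 and 64.0 CPM in NF-YAs A, B and C. The NF-YAl libraries lay below all others and close together, and the NF-YAs libraries lay between them and Empty without overlap. E2F7 fell 1.95-fold in NF-YAl against Empty (log2FC -0.96 ± 0.11, SE, adjusted p = 3.81e-05) and was 1.61-fold lower than in NF-YAs (log2FC -0.69 ± 0.11, adjusted p = 0.000862, both edgeR). In NF-YAs the difference from Empty was -0.27 ± 0.10 on the log2 scale and did not pass (adjusted p = 0.0572). Both calls held with each library left out, at log2FC -1.001 to -0.907 and -0.779 to -0.630. They were lost with limma on log2(TPM + 0.5), at adjusted p = 0.161 and 0.370. This TPM scale also carries differences between libraries in small non-coding RNA, given below with the makeup of the family. The 100 tested genes nearest to E2F7 on its chromosome had a median log2FC of 0.06 in NF-YAl and 0.14 in NF-YAs against Empty.

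E2F8, the other atypical repressor (chr11:19245610-19263167, minus strand), did not pass in any comparison with edgeR. It lies within an antisense gene, CSRP3-AS1. It stood at 12, 11.6 and 10.2 CPM in Empty, 5.46, 10.7 and 10.4 CPM in NF-YAl, and 14.2, 14.5 and 15.9 CPM in NF-YAs. All NF-YAs libraries were above all others, and NF-YAl library A was the lowest. The log2FC was -0.34 ± 0.21 in NF-YAl and 0.40 ± 0.21 in NF-YAs against Empty (adjusted p = 0.244 and 0.151), and -0.74 ± 0.21 between NF-YAl and NF-YAs, which did not pass at 0.01 (adjusted p = 0.0242, or 0.00501 with DESeq2). Relative to gene length, the ratio of E2F7 to E2F8 TPM was 4.13 ± 0.486 in Empty, against 2.88 ± 0.942 in NF-YAl and 2.54 ± 0.300 in NF-YAs (mean ± SD, n = 3). The levels of E2F8 and E2F1 in log2 CPM ran together over the 9 libraries (Pearson's r = 0.988), a description over libraries that share groups and scaling.

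E2F4, the most abundant E2F and the usual partner of p107 and p130 (chr16:67226058-67232821, plus strand), was lower in both overexpressing lines. It stood at 105, 117 and 113 CPM in Empty, 43.3, 74.0 and 75.6 CPM in NF-YAl, and 72.4, 84.6 and 74.6 CPM in NF-YAs. Neither line overlapped with Empty, and NF-YAl library A was far below the other two libraries of its group. E2F4 fell 1.74-fold in NF-YAl (log2FC -0.80 ± 0.17, adjusted p = 0.00386). In NF-YAs it was 1.45-fold lower than in Empty, which did not pass at 0.01 (log2FC -0.53 ± 0.17, adjusted p = 0.0286), although it passed with only these 2 groups in the fit (adjusted p = 9.26e-05) and without NF-YAl library A (adjusted p = 0.000354). The call in NF-YAl was lost without Empty library A, B or C (adjusted p = 0.011, 0.0183 and 0.016), with only the 2 groups in the fit (0.0133) and on the TPM scale (0.262). NF-YAl and NF-YAs differed by -0.26 ± 0.17 (adjusted p = 0.293).

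The genes around E2F4 were lower too. The 100 tested genes nearest to it had a median log2FC of -0.51 in NF-YAl and -0.39 in NF-YAs against Empty, where the median of all tested genes was 0.01 and 0.00. Chromosome 16 was then examined as a whole, a step added after these values were seen. On the long arm, taken as the genes after the centromeric gap in gene starts, 249 of 289 tested genes had a log2FC below 0 in NF-YAl against Empty, with a median of -0.51, and 134 of them (46.4%) fell past the threshold while 4 rose. In NF-YAs against Empty, 241 of the 289 were below 0, with a median of -0.43, and 102 (35.3%) fell while 10 rose. On the short arm, 7.05% of 369 tested genes fell in NF-YAl and 8.13% in NF-YAs, with medians of -0.09 and -0.05. Between NF-YAl and NF-YAs the median of the long arm was -0.07. Other chromosomes were shifted as well. Chromosome 16 as a whole had the lowest median of the autosomes in NF-YAl, at -0.23, and chromosome 21 followed at -0.14. In NF-YAs it stood at -0.20, and chromosomes 18 and 21 were lower, at -0.37 and -0.29, with 32.9% and 24.9% of their genes down. Of the other listed genes on the long arm of chromosome 16, the pocket protein gene RBL2, the origin recognition gene ORC6 and the licensing factor gene CDT1 fell in NF-YAl. The replication genes GINS2 and GINS3, named here after their values were seen, did not pass, GINS2 with log2FC of -0.39 in NF-YAl and -0.15 in NF-YAs, and GINS3 with -0.18 in NF-YAl and 0.33 in NF-YAs. Whether the arm has a part in the lower E2F4 level was not tested, and DNA copy number was not analysed here. The 2 genes most like E2F4 over the 9 libraries were VPS4A (Pearson's r = 0.994 in log2 CPM), which starts 2.12 Mb from E2F4 on the same arm, and the ribosomal protein gene RPS19 (r = 0.990) on chromosome 19.

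**Figure D2:**
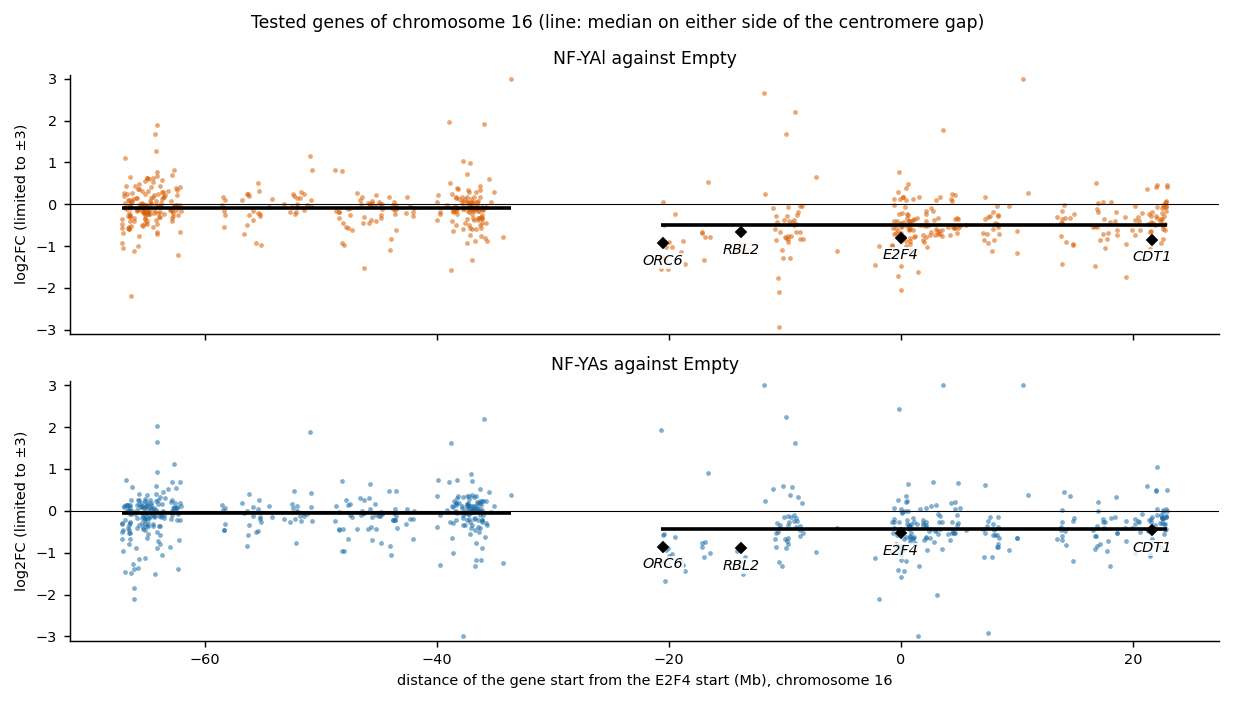
log2FC of the 658 tested genes of chromosome 16 against Empty (points, values beyond ±3 drawn at ±3), by distance of the gene start from the start of E2F4 in Mb, for NF-YAl (top) and NF-YAs (bottom). The median of the long arm (black line, right) lies at -0.51 and -0.43 and that of the short arm at -0.09 and -0.05; E2F4, RBL2, ORC6 and CDT1 (diamonds) lie on the long arm.

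E2F5, the close relative of E2F4 that also works with p107 and p130 (chr8:86089389-86129387, plus strand), went the other way in NF-YAl. It stood at 7.76, 8.34 and 7.36 CPM in Empty, 11.5, 13.0 and 20.8 CPM in NF-YAl, and 11.3, 9.11 and 9.54 CPM in NF-YAs. Both overexpressing lines lay above Empty in every library, and NF-YAl library D was the highest of all. E2F5 rose 1.94-fold in NF-YAl (log2FC 0.95 ± 0.20, adjusted p = 0.00370). The NF-YAs difference of 0.35 ± 0.21 did not pass (adjusted p = 0.210), nor did that between NF-YAl and NF-YAs at 0.01 (0.60 ± 0.20, adjusted p = 0.05 after rounding). The call in NF-YAl was lost without Empty library A, B or C (adjusted p = 0.0152, 0.0128 and 0.0208), with only the 2 groups in the fit (0.0121) and on the TPM scale (0.0189). The 100 tested genes nearest to E2F5 had a median log2FC of 0.40 in NF-YAl, 0.07 in NF-YAs and 0.28 between the isoforms. Over all 524 tested genes of chromosome 8 the median was 0.21 in NF-YAl, where 18.5% rose, and 0.08 in NF-YAs. Of the autosomes, only chromosome 3 had a higher median in NF-YAl. The part of these shifts in the E2F5 level was not tested. The end of E2F5 overlaps RBIS on the opposite strand.

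E2F6, which represses without pocket proteins (chr2:11584501-11606303, minus strand), was the member that rose in NF-YAs. It stood at 19.9, 22.3 and 20.6 CPM in Empty, 21.7, 23.8 and 25.3 CPM in NF-YAl, and 30.9, 26.9 and 29.4 CPM in NF-YAs, where every library lay above all others. The rise was 1.39-fold (log2FC 0.47 ± 0.11, adjusted p = 0.00438). It was lost without Empty library A or C or NF-YAs library A or C (adjusted p = 0.0201, 0.0241, 0.0231 and 0.0224) and on the TPM scale (0.197). The log2FC was 0.17 ± 0.11 in NF-YAl against Empty (adjusted p = 0.242) and -0.30 ± 0.11 between NF-YAl and NF-YAs (adjusted p = 0.0609). None of the 10 listed partners of E2F6 in its Polycomb-type complexes changed by edgeR in any comparison, and 0, 2 and 2 were below an unadjusted p of 0.05 in NF-YAl against Empty, NF-YAs against Empty and between the isoforms. Their median log2FC was 0.17, 0.06 and -0.03. Below that unadjusted p were 42.2%, 45.0% and 36.5% of all tested genes. Of the 5 germline genes listed as E2F6 targets, 3 passed the filter on low counts. None of these changed against Empty (1 below an unadjusted p of 0.05 in each comparison), and the germ cell helicase gene DDX4 was lower in NF-YAl than in NF-YAs (log2FC -2.36 ± 0.47, adjusted p = 0.0039), at levels of 0.11 to 0.86 CPM in all libraries. DDX4 fell below the level set for naming a gene and is named because it was the only call in its list.

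**Figure D3:**
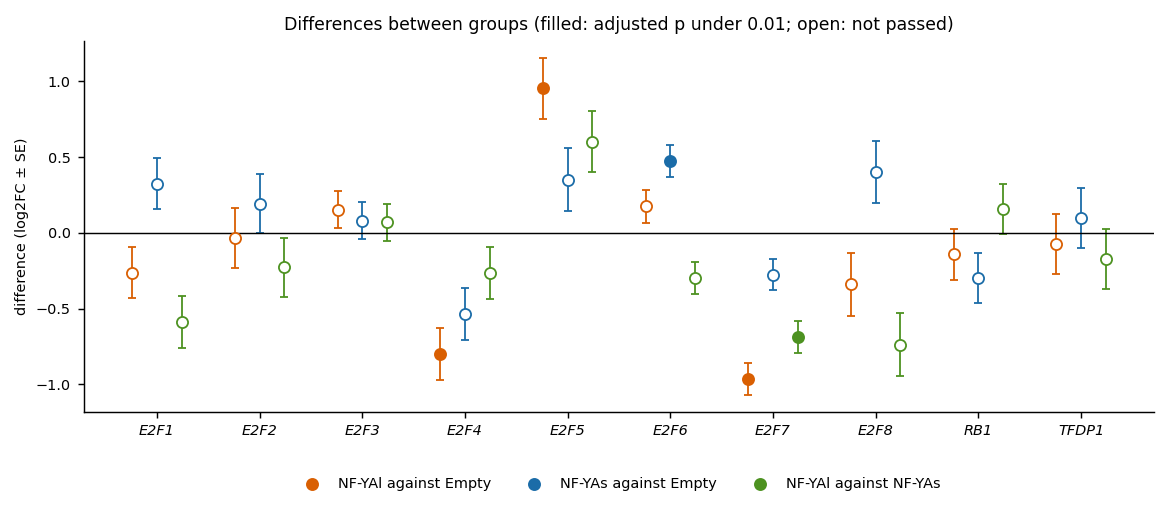
Difference in log2FC ± SE for each member in NF-YAl against Empty (orange), NF-YAs against Empty (blue) and NF-YAl against NF-YAs (green). Filled points passed adjusted p under 0.01 with edgeR: E2F4, E2F5 and E2F7 in NF-YAl, E2F6 in NF-YAs, and E2F7 between the isoforms.

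E2F1, the activator that drives S phase genes and can also induce apoptosis (chr20:32263283-32274191, minus strand), did not pass in any comparison. It stood at 51.4, 53.3 and 45.9 CPM in Empty, 28.2, 46.3 and 50.7 CPM in NF-YAl, and 63.1, 61.6 and 63.9 CPM in NF-YAs. The NF-YAs libraries were close together and above all others, while NF-YAl spread from the lowest library of the series to the Empty range. The log2FC was -0.26 ± 0.17 in NF-YAl (adjusted p = 0.263) and 0.32 ± 0.17 in NF-YAs against Empty (adjusted p = 0.155). The difference between the isoforms was -0.59 ± 0.17, with adjusted p = 0.0263, 0.00779 with DESeq2 and 0.00442 without NF-YAl library D. In NF-YAs against Empty, E2F1 passed with only these 2 groups in the fit (adjusted p = 0.00297) and without NF-YAl library A (adjusted p = 0.00856). The genes most like E2F1 over the 9 libraries were TK1 (r = 0.998), the S phase thymidine kinase gene, and the mitotic checkpoint gene BUB1B (r = 0.990). MKI67, a marker of cycling cells, had its lowest value in the same library as E2F1: it stood at 310, 291 and 260 CPM in Empty, 155, 263 and 253 CPM in NF-YAl, and 401, 410 and 396 CPM in NF-YAs. The part of the share of cycling cells in the E2F1 and E2F8 levels was not tested.

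E2F2 (chr1:23832930-23857725, minus strand), the least abundant E2F, and E2F3 (chr6:20402110-20493945, plus strand) complete the activators. E2F2 ranged from 6.81 to 9.56 CPM in Empty, 5.73 to 9.32 CPM in NF-YAl and 8.89 to 10.4 CPM in NF-YAs. E2F3 ranged from 30.5 to 34.0 CPM in Empty, 30.2 to 41.9 CPM in NF-YAl and 32.2 to 36.8 CPM in NF-YAs. All groups overlapped for both genes, and their log2FC lay between -0.23 and 0.19 with adjusted p from 0.374 to 0.918.

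RB1, the pocket protein that restrains the activators (chr13:48877880-49173572, plus strand), stood at 29.99, 32.03 and 27.2 CPM in Empty, 20.5, 24.9 and 35.2 CPM in NF-YAl, and 26.0, 22.7 and 23.8 CPM in NF-YAs. The NF-YAs libraries lay below Empty and the NF-YAl libraries spread across both. The log2FC was -0.14 ± 0.17 in NF-YAl, -0.30 ± 0.17 in NF-YAs and 0.16 ± 0.17 between them (adjusted p = 0.556, 0.184 and 0.528). LPAR6 and RCBTB2 lie within RB1 on the opposite strand. The libraries were stranded, but whether counting used the strand is not given in the sources used here. Relative to gene length, the ratio of E2F1 to RB1 TPM was 3.06 ± 0.0448 in Empty, against 2.82 ± 0.474 in NF-YAl and 4.74 ± 0.278 in NF-YAs, where the lowest library (4.42) was above the highest of the other groups (3.37).

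TFDP1, the main DP partner (chr13:114239036-114295788, plus strand), stood at 76.5, 79.0 and 61.0 CPM in Empty, 43.8, 73.0 and 88.4 CPM in NF-YAl, and 81.9, 76.1 and 73.4 CPM in NF-YAs. NF-YAl held both the lowest and the highest library of the series. The log2FC was -0.07 ± 0.20, 0.10 ± 0.20 and -0.17 ± 0.20 in the 3 comparisons (adjusted p = 0.819, 0.741 and 0.566).

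As levels of different genes can be compared only per length, the makeup of the family was read from TPM within each library. TPM themselves were compared between libraries only in the limma alternative. The small non-coding RNAs RN7SL1, RN7SL2 and RN7SK took 26.7% to 40.5% of all TPM in 8 libraries and 13.0% in NF-YAl library D. There the summed TPM of the 8 E2F genes was 201, against 78.9 in NF-YAl library A. The limma alternative carries this difference between libraries. E2F4 held 48.7%, 50.2% and 52.0% of the summed E2F TPM in Empty A, B and C, 35.1%, 41.3% and 38.2% in NF-YAl A, B and D, and 35.5% to 41.1% in NF-YAs, so that neither line overlapped with Empty. E2F1 held 17.2% ± 1.05 in Empty, against 18.9% ± 1.28 in NF-YAl and 23.5% ± 0.600 in NF-YAs (mean ± SD, n = 3). E2F5 held 4.38% ± 0.195 in Empty, against 11.3% ± 2.14 in NF-YAl and 6.15% ± 0.826 in NF-YAs. E2F7 held 11.6% ± 0.311, 8.18% ± 1.5 and 10.4% ± 1.23 in the same order, and E2F6 held 5.90% ± 0.106, 9.11% ± 1.68 and 8.93% ± 0.676. By role, the activators E2F1 to E2F3 together took 23.4% to 26.5% in Empty, 29.96% to 30.5% in NF-YAl and 32.2% to 32.8% in NF-YAs. E2F4 and E2F5 together took 53.2% to 56.1%, 46.6% to 51.4% and 42.6% to 46.6%. These shares are descriptions with no test. They are parts of 1 whole, so that a lower share of E2F4 comes with higher shares of the others. In CPM, E2F1, E2F2, E2F3 and E2F6 differed from Empty by log2FC of -0.26, -0.03, 0.15 and 0.17 in NF-YAl, and none of these passed.

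The order of levels in Empty was E2F4, TFDP1, E2F1, E2F7, E2F3, E2F6, RB1, E2F5, E2F8 and E2F2, and only E2F6 and RB1 overlapped as neighbours over the libraries. In NF-YAl, E2F5 moved by its mean from place 8 to place 4. Its range overlapped those of E2F3, E2F6 and E2F7, so its place among them is not resolved. E2F4 overlapped TFDP1 in NF-YAl. In NF-YAs, E2F4, TFDP1 and E2F1 led without overlap, and E2F7 overlapped E2F6. The ratio of E2F4 to E2F5 TPM was 11.5 ± 0.897 in Empty, against 3.51 ± 0.946 in NF-YAl and 6.25 ± 1.26 in NF-YAs. The ratio of E2F4 to E2F1 TPM was 2.93 ± 0.277, 2.02 ± 0.0731 and 1.61 ± 0.165.

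**Figure D4:**
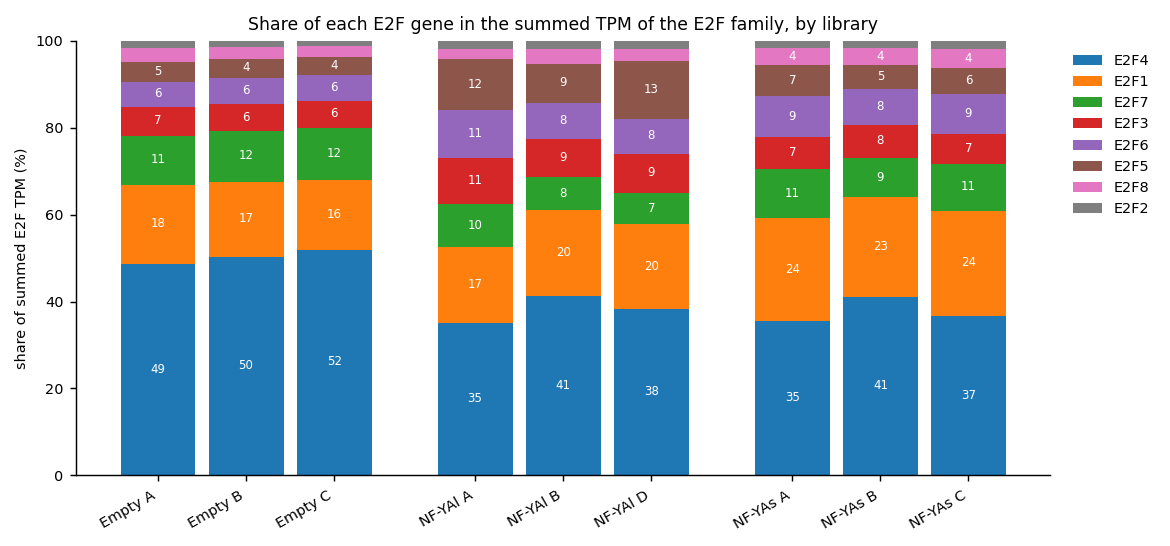
Share of each E2F gene in the summed TPM of the 8 E2F genes, in percent, for each library. E2F4 (blue, bottom) takes 48.7% to 52.0% in Empty and 35.1% to 41.3% in the overexpressing lines, and E2F5 (brown) takes 8.98% to 13.2% in NF-YAl.

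Among the other pocket, DP and MuvB genes (9 tested), RBL2, encoding p130, fell in both lines, TFDP2, the second DP partner, rose in both, and MYBL2, encoding B-MYB, which takes the place of p130 on MuvB in cycling cells, rose in NF-YAs. RBL2 stood at 78.6, 80.5 and 83.5 CPM in Empty, 51.1, 51.2 and 50.03 CPM in NF-YAl, and 45.2, 43.3 and 42.4 CPM in NF-YAs, with narrow groups that did not overlap. Its log2FC was -0.67 ± 0.08 in NF-YAl and -0.89 ± 0.08 in NF-YAs against Empty (adjusted p = 7.67e-05 and 9.63e-06). The 100 tested genes nearest to RBL2 had medians of -0.58 and -0.41. TFDP2 stood at 36.8, 30.4 and 30.5 CPM in Empty, 81.7, 64.3 and 55.1 CPM in NF-YAl, and 52.8, 51.5 and 55.6 CPM in NF-YAs, so that every library of both lines lay above Empty. The TFDP2 log2FC was 1.04 ± 0.14 and 0.71 ± 0.14 (adjusted p = 0.000145 and 0.00174), and its neighbours on chromosome 3 had medians of 0.35 and 0.17. MYBL2 rose 1.67-fold in NF-YAs (log2FC 0.74 ± 0.18, adjusted p = 0.00785) and differed by 0.16 ± 0.18 in NF-YAl (adjusted p = 0.559). RBL1, LIN9, LIN37, LIN52, LIN54 and RBBP4 had adjusted p from 0.0468 to 0.950 against Empty. No gene of this list passed between NF-YAl and NF-YAs, where 4 of 9 were below an unadjusted p of 0.05 by edgeR, as were 36.5% of all tested genes.

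Per length, RBL2 held 57.5% ± 2.46 of the summed TPM of the pocket proteins RB1, RBL1 and RBL2 in Empty, against 48.0% ± 6.12 in NF-YAl and 43.4% ± 0.519 in NF-YAs. RBL1, encoding p107, held 21.1% ± 1.61, 27% ± 2.43 and 32.2% ± 1.13, and RB1 held 21.4% ± 1.57, 25% ± 3.78 and 24.4% ± 1.08. A lower share of RBL2 comes with higher shares of the other pocket proteins: in CPM, the log2FC of RB1 was -0.14 in NF-YAl and -0.30 in NF-YAs against Empty. TFDP2 held 10.6% ± 1.29 of the summed TPM of both DP partners in Empty, against 21.6% ± 9.75 in NF-YAl and 15.3% ± 1.09 in NF-YAs, with TFDP1 the larger in every library.

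Of 19 G1 cyclins, kinases and inhibitors that act upstream of the pocket proteins, 4 rose and 2 fell in NF-YAl against Empty, 2 rose and 2 fell in NF-YAs, and 1 rose and 2 fell between NF-YAl and NF-YAs. Of all tested genes, 10% rose and 9.54% fell, 12.1% rose and 10.5% fell, and 4.7% rose and 6.25% fell in the same order. CDK6, a kinase of cyclin D, rose in both lines (log2FC 0.79 ± 0.15 and 0.94 ± 0.15, adjusted p = 0.00180 and 0.000481). Of the 7 inhibitor genes listed, CDKN2B (p15) rose in NF-YAl (0.87 ± 0.12, adjusted p = 0.000251) and differed by 0.47 ± 0.12 in NF-YAs, which did not pass (adjusted p = 0.0117). In NF-YAs CDKN1B (p27) fell by 0.54 and CDKN1C (p57) fell by 1.03 in log2FC (adjusted p = 0.00987 and 0.00212). CDKN1C differed by -0.33 ± 0.20 in NF-YAl (adjusted p = 0.232), and the other 4 inhibitor genes did not pass in any comparison. CDKN1B stood at 20.0 to 23.4 CPM in Empty, 21.6 to 31.6 CPM in NF-YAl and 14.4 to 15.7 CPM in NF-YAs, and was 1.75-fold higher in NF-YAl than in NF-YAs (adjusted p = 0.00181). CDK2 fell in NF-YAl (log2FC -0.43 ± 0.11, adjusted p = 0.00928) and was lower than in NF-YAs (-0.68 ± 0.11, adjusted p = 0.00108), and the ubiquitin ligase gene SKP2 fell in NF-YAl (-0.41 ± 0.10, adjusted p = 0.00756). CDK4 rose in NF-YAs (0.37 ± 0.09, adjusted p = 0.00862), and CCNE2, a cyclin E gene and itself an E2F target, rose in NF-YAl (0.62 ± 0.15, adjusted p = 0.00839). The other gene that rose in NF-YAl was the cyclin D gene CCND2 (4.23 ± 0.62, adjusted p = 0.000316), which fell below the level set for naming a gene. In NF-YAs CCND2 differed from Empty by 2.80 ± 0.74, which did not pass (adjusted p = 0.0109).

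Levels of 54 G1/S and replication genes, listed as E2F targets from general knowledge, were read beside the members. They do not measure E2F activity, and the part of the share of cycling cells in them was not tested. In NF-YAl against Empty, 5 of the genes fell and none rose, with a median log2FC of -0.17 over the list and 41 of 54 below 0. In NF-YAs against Empty, 2 rose and 1 fell, with a median of 0.21 and 41 of 54 above 0. Between NF-YAl and NF-YAs, 6 were lower and none higher, with a median of -0.37 and 48 of 54 below 0. The median of all tested genes was 0.01, 0.00 and 0.02 in these comparisons. Of all tested genes, 10% rose and 9.54% fell in NF-YAl against Empty, and 12.1% rose and 10.5% fell in NF-YAs against Empty. Between NF-YAl and NF-YAs, 4.7% were higher and 6.25% lower. In NF-YAl, ORC6, CDT1, RRM1 (ribonucleotide reductase) and TYMS (thymidylate synthase) had the largest falls among the genes that passed, with log2FC of -0.93 ± 0.11, -0.85 ± 0.19, -0.72 ± 0.14 and -0.69 ± 0.16 (adjusted p = 7.17e-05, 0.00538, 0.00205 and 0.00591). ORC6 and CDT1 lie on the long arm of chromosome 16 described above. The genes nearest to RRM1 and TYMS had a median log2FC of -0.30 and -0.48 in NF-YAl, over 100 and 54 tested genes. In NF-YAs, the replication initiation factor gene MCM10 and the polymerase epsilon gene POLE rose (log2FC 1.16 ± 0.20 and 0.95 ± 0.11, adjusted p = 0.000920 and 3.61e-05) and ORC6 fell (-0.85 ± 0.11, adjusted p = 0.000109). The genes nearest to POLE, at the end of chromosome 12, had a median of 0.61 in NF-YAs over 62 tested genes, and those nearest to MCM10 had 0.42 over 94. ORC1, MCM10, POLA2 and POLD1 were lower in NF-YAl than in NF-YAs, by 0.59 to 0.97 on the log2 scale.

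These counts moved with single libraries, and so did the calls over all tested genes. Without NF-YAl library D, 15 targets changed in NF-YAl against Empty, 6 in NF-YAs against Empty and 24 between NF-YAl and NF-YAs. Of all genes, 24.5%, 28.8% and 15.8% changed in the same order. Without NF-YAl library A, 12 targets changed in NF-YAs against Empty, as did 28.7% of all genes. Without Empty library A, B or C, 2, 1 and 3 targets changed in NF-YAl against Empty, as did 3 without NF-YAl library B. Over all genes the shares were 14.1%, 12.5% and 11.6%, and 14.7% without NF-YAl library B. Between NF-YAl and NF-YAs, 2 and 3 targets changed without Empty library A or C, and 2, 1 and 1 without NF-YAs library A, B or C. Of all genes, 8.95% and 8.09%, and 6.38%, 5.03% and 4.76%, changed in these fits. The summed level of the 54 genes was 2631 to 2981 CPM in Empty, 1779, 2586 and 2958 CPM in NF-YAl A, B and D, and 3244 to 3275 CPM in NF-YAs, so that the NF-YAs libraries lay above all others.

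The 22 G2/M genes, many of them DREAM targets, were all lower in NF-YAl than in either other group by the sign of log2FC, with medians of -0.44 against Empty and -0.65 against NF-YAs. The tests called 1 of them against Empty, the phosphatase gene CDC25C (log2FC -0.96 ± 0.24, adjusted p = 0.00924), and 3 against NF-YAs: PLK1 (-1.07 ± 0.21), MKI67 (-0.85 ± 0.16) and FOXM1 (-0.73 ± 0.16), with adjusted p = 0.00321, 0.00357 and 0.00748. Of all tested genes, 9.54% fell in NF-YAl against Empty and 6.25% were lower in NF-YAl than in NF-YAs. In NF-YAs against Empty none was called, 7 were below an unadjusted p of 0.05 by edgeR, and the median was 0.18. In that comparison 12.1% of all tested genes rose, 10.5% fell and 45.0% were below an unadjusted p of 0.05. NF-YAl library A held the lowest summed level, as given above.

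**Figure D5:**
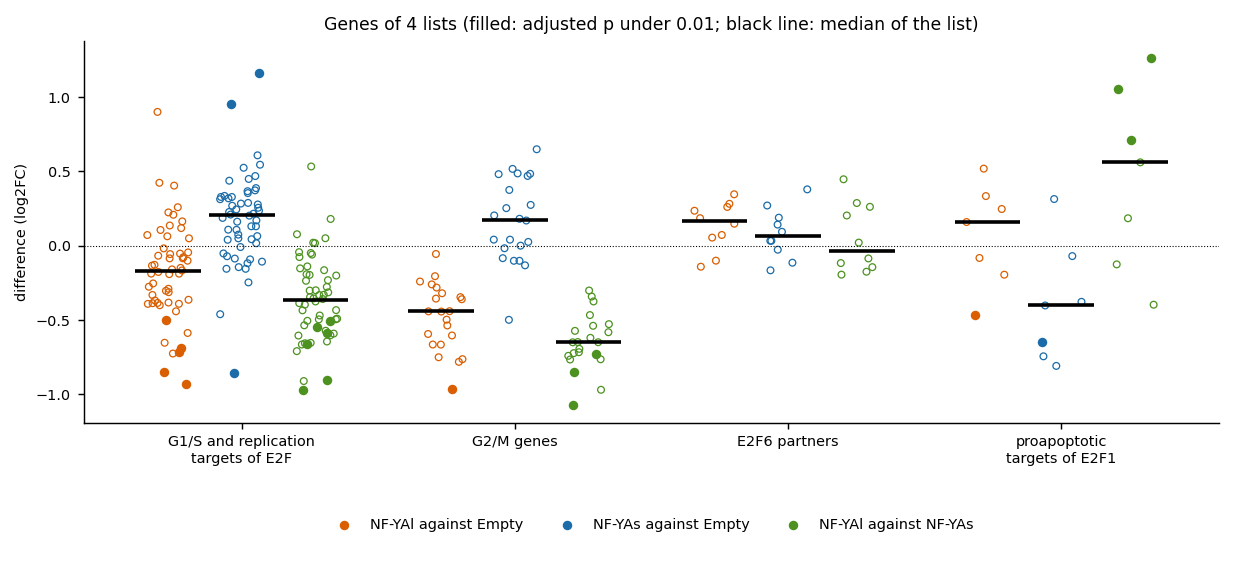
log2FC of each gene of 4 lists (54 G1/S and replication targets of E2F, 22 G2/M genes, 10 E2F6 partners and 7 proapoptotic targets of E2F1) in the 3 comparisons, with the median of the list as a black line and genes with adjusted p under 0.01 filled. Against Empty, 41 of the 54 targets and all 22 G2/M genes lie below 0 in NF-YAl (medians -0.17 and -0.44), and 41 and 16 lie above 0 in NF-YAs (medians 0.21 and 0.18).

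Of 7 genes through which E2F1 is known to induce apoptosis, APAF1, the apoptosome scaffold, fell in both lines (log2FC -0.46 ± 0.10 and -0.65 ± 0.10, adjusted p = 0.00330 and 0.000316), and no other passed against Empty. TP73, BBC3 (PUMA) and BCL2L11 (BIM) were higher in NF-YAl than in NF-YAs by 1.06 ± 0.23, 1.26 ± 0.25 and 0.71 ± 0.14 on the log2 scale (adjusted p = 0.00697, 0.00424 and 0.00352). Their values against Empty lay between 0.25 and 0.52 in NF-YAl and between -0.81 and -0.38 in NF-YAs, none of which passed. Hypoxia is a condition of spheroid cores, so 10 hypoxia genes were read beside the members. In NF-YAl 7 fell, and in NF-YAs 8 fell, where 9.54% and 10.5% of all tested genes fell. None rose past the threshold, and the medians were -0.76 and -0.81. Their summed level was 4198 to 4904 CPM in Empty, 2205 to 3052 CPM in NF-YAl and 2551 to 2694 CPM in NF-YAs. CA9, NDRG1 and SLC2A1 were higher in NF-YAl than in NF-YAs. CA9 was the 1 gene of this list with a log2FC above 0 in NF-YAl against Empty, at 1.07 ± 0.28, which did not pass (edgeR, adjusted p = 0.0123). The part of hypoxia in the levels of the members was not tested.

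More than 1 transcript was listed for 5 members, and 13 transcripts with a share of 10% to 90% in some group were compared. In 39 two-sided exact permutation tests no p was below 0.1, the smallest that 3 against 3 libraries allow, and the smallest adjusted p was 0.836. The groups did not overlap in 4 of the 39. Such a result comes up by chance at a rate of 0.1 per test, and its share over all transcripts was not computed. The E2F6 transcript NM_001278278.1 took 33.0%, 26.3% and 26.9% of E2F6 in NF-YAs, 22%, 14% and 14.2% in Empty, and 17.6%, 18% and 10.7% in NF-YAl, so that NF-YAs lay above both other groups (exact p = 0.1 each). The E2F8 transcript NM_001256372.1 took 61.5%, 53.7% and 37.8% in NF-YAs and 31.2%, 14.1% and 15.5% in Empty (exact p = 0.1), and was listed at 0% in NF-YAl library D against 46.6% and 46.4% in the other libraries of that group. For E2F3, the shorter E2F3b transcript (NM_001243076.2) took 50.2% to 61.4% in Empty, 54.7% to 73.3% in NF-YAl and 56.8% to 64.3% in NF-YAs, so that the groups overlapped.

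The 2 genes most like each remaining member in log2 CPM over the 9 libraries were CREG2 and ADRA1B for E2F7 (r = 0.984 and 0.983), TACC3 and E2F1 for E2F8 (both 0.988), RAB11FIP1 and OPA1 for E2F5 (0.991 and 0.985), VPS33A and MTMR2 for E2F6 (0.989 and 0.986), NIFK and CAPZA2 for RB1 (0.980 and 0.978), DUSP23 and RFC3 for TFDP1 (0.969 and 0.967), KAZN and LOC105370333 for E2F2 (0.948 and 0.950), and NEURL1B and TIPIN for E2F3 (0.938 and 0.937). Libraries share groups and scaling, so these values only describe likeness. Among the members themselves, E2F7 and E2F5 ran most against each other (r = -0.741).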

How the data were processed

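The authors pooled spheroids, prepared stranded total RNA libraries and aligned reads to the human transcriptome (GRCh37/hg19, RefSeq transcripts) with bowtie2 inside RSEM. The deposited gene files give RSEM expected counts and TPM, and the deposited transcript files give expected counts, TPM and IsoPct, the percent of a gene's abundance that a transcript takes. Use of the strand in counting is not given in the sources used here. Members and gene lists were chosen with earlier results of these data known.

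The expected counts were rounded to whole numbers, and edgeR 4.0.16 was used (filterByExpr, trimmed mean of M values, quasi-likelihood test, R 4.3.3) in 1 fit over 9 libraries, with Benjamini-Hochberg adjustment over 17108 genes. A gene changed at adjusted p under 0.01, and |log2FC| above 1 was required in addition for a differentially expressed gene, the limits of the study. The study used DESeq2, which is an alternative here (1.42.0), as is limma 3.58.1 on log2(TPM + 0.5). The tests were tried on simulated counts first. The methods describe 3 independent experiments, while the labels give only letters, so p-values measure the spread between these libraries. Transcript shares were compared by two-sided exact permutation tests. Positions come from GENCODE lifted to GRCh37 and promoters from RefSeq (GRCh38.p14). Named list genes are every gene of the pocket protein, PC3 identity and NF-Y lists (some PC3 identity genes are not reported here) and, of the other lists, at most 4 per comparison and direction with adjusted p under 0.01, at least 1 CPM and groups that did not overlap. MKI67 and CDK1 could be named, and for each member the 2 genes with the highest Pearson's r. The views of chromosome 16, of the other chromosomes and of the genes near list members were added after the data were seen.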

Additional observations from a re-analysis of the deposited data

Results flagged for a closer look

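E2F7 had an effect over Empty that differed between the lines: its log2FC was -0.96 ± 0.11 in NF-YAl and -0.27 ± 0.10 in NF-YAs, and the test of the difference itself, which is the comparison of NF-YAl with NF-YAs in the same fit, gave -0.69 (edgeR quasi-likelihood test, adjusted p = 0.000862). All 3 NF-YAl libraries were below all 3 NF-YAs libraries. No other member passed that test at adjusted p under 0.01. Groups of 3 libraries are too small for a test of single libraries that stand apart.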

How the results depend on the processing

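Against 3, 1 and 1 members changed (NF-YAl against Empty, NF-YAs against Empty, NF-YAl against NF-YAs) and 5, 3 and 6 E2F targets, limma on log2(TPM + 0.5) gave 0, 0 and 0 members and 0, 1 and 0 targets, and there the median log2FC of all genes was 0.25, 0.15 and 0.11. Only the 2 groups compared gave 1 and 4 members in the first comparisons, where 12.9% and 36.1% of all genes changed, and 2, 14 and 1 targets. In the last of these 6.21% of all genes changed. DESeq2 gave 10 and 11 targets in the first and last comparisons, where 24.4% and 16.8% of all genes changed, and 3 members in the last. At adjusted p under 0.05, 2 and 4 members changed in the last comparisons (35.5% and 23.3% of all genes) and 11, 7 and 20 targets. In NF-YAl against Empty 32.1% of all genes changed at that threshold. With each library left out in turn, members ranged from 1 to 3, 0 to 3 and 1 to 2, and targets from 1 to 15, 3 to 12 and 1 to 24. The share of all genes that changed then ranged from 11.6% to 24.5%, 13.6% to 28.8% and 4.76% to 15.8%. Transcript comparisons with groups that did not overlap ranged from 4 to 12, against 4 of 39 with all libraries. Smaller groups fail to overlap more readily.

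With the letters as a replicate block, 2 and 2 members changed in the last comparisons (31.1% and 16.4% of all genes) and 17, 8 and 30 targets. In NF-YAl against Empty 24.3% of all genes changed with the block. A block term for a letter held by a single library fits that library exactly, which is the case for NF-YAl library D. With the block, NF-YAl library D therefore adds nothing to any log2FC, much as if it were left out. Without NF-YAl library D, 24.5%, 28.8% and 15.8% of all genes changed, in the order of comparisons given above. The block is thus not a check of pairing alone. The letters are not known to pair the libraries: residuals of libraries with the same letter had a mean correlation of 0.09 (-0.07 to 0.25, 7 pairs), against -0.03 for 20 pairs of different letters. The block turned the log2FC of E2F3 to -0.016 against Empty and -0.096 against NF-YAs, and of RB1 to -0.13 against NF-YAs.

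Differences near 0 changed sign elsewhere too, none past a threshold. In NF-YAl against Empty, limma gave 0.20 for E2F2, 0.12 for RB1 and 0.17 for TFDP1, and with each library left out E2F2 ranged from -0.16 to 0.15, RB1 from -0.38 to 0.017 and TFDP1 from -0.30 to 0.16. TFDP1 in NF-YAs against Empty ranged from -0.012 to 0.17. Between NF-YAl and NF-YAs, E2F3 ranged from -0.040 to 0.19, RB1 from -0.082 to 0.32 and TFDP1 from -0.39 to 0.067. All 24 family shares kept within 1 SD with CPM per effective length. Within a library this differs from TPM only in the effective length used, so it is not an independent check of the shares.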
